A study of Mus musculus with 56 samples.

Results

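The 150 protein-coding genes described here were those whose RNA was most concentrated in the ribosome-bound fraction of all 3 mouse lines of the study, and Yeats2, Bahcc1 and Tnrc18 led them. They were chosen from the measured values. In each of the 3 count tables the counts were scaled by the column total to counts per 1000000 (CPM), the mean log2(CPM + 1) of the unbound libraries was subtracted from that of the bound libraries, and genes were ranked by the smallest of the 3 differences. A protein-coding gene had to reach a mean of 5 CPM in every table, which 10083 of 20526 protein-coding genes present in all 3 tables did. The neurofilament genes, Ina, Prph, Gfap and the genes whose names start with Kcn, Col or Pcdh were left out by name, and 14 of those lay above the threshold. Because the bound minus unbound difference selected the genes, it is given below as a description and is not tested.

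Ribosomes were tagged in one cell type by a fusion of EGFP and the ribosomal protein L10a, and were pulled down with beads carrying a GFP antibody from barrel cortex of mice at postnatal day 5. The matching unbound libraries are labelled as tissue. Cautery removed right-side whiskers at postnatal day 4, 24 hours earlier, so that the left cortex was deprived and the other side served as control. The astrocyte line carried an Aldh1l1::eGFPL10a transgene, driven by the Aldh1l1 promoter, and received no tamoxifen; it gave 5 control and 5 deprived pieces. The microglial lines carried Eef1a1LSL.eGFPL10a/+ with Cx3cr1CreErt2/+ (heterozygous, 4 control and 4 deprived pieces) or Cx3cr1CreErt2/CreErt2 (knockout, which lacks both intact copies of the fractalkine receptor gene Cx3cr1, 5 pieces of each kind), and both received 50 µg of tamoxifen by mouth each day from postnatal day 1 to 3. Even the heterozygous mice therefore had only 1 intact Cx3cr1 allele, and the Cre line recombines in any cell with an active Cx3cr1 promoter at the time of tamoxifen. In the microglial lines each piece gave 1 bound and 1 unbound library. The labels name total RNA for the astrocyte and heterozygous lines and polyA RNA for the knockout line, so genotype and RNA type cannot be told apart.

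In a ribosome pulldown of this kind, messages translated in the tagged cells are enriched over the rest of the tissue, while messages from other cells remain at some level in the bound fraction. YEATS2 reads acylated histone lysines and is a subunit of the ATAC acetyltransferase complex. BAHCC1 and TNRC18 are large related nuclear proteins with a BAH domain, a module that reads methylated histones in silenced chromatin.

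All 56 libraries held between 10081228 and 56689296 counts, and every member had at least 2 counts in every library. In the heterozygous line the titles call both pieces of mouse 17 deprived and both pieces of mouse 21 control, although the treatment reached one side only; the side letters of the library names (L for deprived cortex) would move 17R and 21L to the other group. Whisker results of this line are therefore given by title, by side letter and without those 2 pieces. In the knockout line the bound control library of mouse 18 had fewer counts on the members, and its unbound partner more on the first 3, than the other libraries of their groups. The labelled cell types could be checked against 10 markers each. In the astrocyte line the summed astrocyte markers were at 2739 ± 230.2 CPM in the bound and 1406 ± 94.9 CPM in the unbound libraries (SD, n = 10 each). The summed microglial markers were at 218.7 ± 60.8 against 24.8 ± 3.60 CPM over 8 bound and 8 unbound libraries of the heterozygous line (SD), and at 166.0 ± 66.7 against 20.8 ± 2.30 CPM over 10 and 10 of the knockout line (SD). Neuronal markers stayed high in every bound library: their sum was 3510 ± 190.2 CPM in bound and 5221 ± 310.6 CPM in unbound libraries of the heterozygous line, where microglia were the labelled cells.

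Yeats2 (chr16:20141063-20232573, plus strand, GRCm38) had the largest smallest difference of all genes. In the astrocyte line its bound level ran from 1853 CPM through a median of 2241 to 2577 CPM, and its unbound level from 17.3 through 18.4 to 19.9 CPM. Every bound library of that line was far above every unbound one, and the bound mean was 122-fold the unbound mean. In the heterozygous line the bound libraries lay between 971.2 and 1333 CPM (median 1163) and the unbound libraries between 10.1 and 12.2 CPM (median 11.3), a ratio of means of 102. The knockout line gave 534.8 to 1368 CPM bound (median 1221) and 9.19 to 18.0 CPM unbound (median 11.6), a ratio of 95.1. Its lowest bound and its highest unbound value came from the control piece of mouse 18. Paired by piece, the difference in log2(CPM + 1) was 6.55 ± 0.17 in the heterozygous line (SD, n = 8 pieces) and 6.44 ± 0.61 in the knockout line (SD, n = 10 pieces).

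Bahcc1 (chr11:120232947-120292296, plus strand) followed. Its bound level in the astrocyte line lay between 1467 and 2505 CPM (median 1613) against 22.0 to 30.4 CPM unbound (median 28.1), a ratio of means of 65.1. The heterozygous line had 1109 to 1677 CPM (median 1189) against 9.90 to 13.4 CPM (median 11.3), and the knockout line 376.1 to 1308 CPM (median 1150) against 9.71 to 19.6 CPM (median 11.1). The fractions did not overlap in any line.

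Tnrc18 (chr5:142724661-142817662, minus strand) ranked next. Its difference was smaller in the astrocyte line (5.01) than in the heterozygous (6.92) and knockout (6.67) lines, on the log2(CPM + 1) scale. Its bound level ran from 1555 to 2160 CPM in astrocytes, from 2405 to 4435 CPM in the heterozygous line and from 1384 to 3205 CPM in the knockout line. The unbound level was higher in the astrocyte line, at 50.2 to 63.2 CPM, than in the heterozygous line, at 20.8 to 25.6 CPM. These 3 genes alone took 0.586% ± 0.066 of all bound counts in the astrocyte line (SD, n = 10), against 0.0102% ± 0.0007 of the unbound counts. The shares were 0.540% ± 0.092 against 0.0046% ± 0.0003 in the heterozygous line (SD, n = 8) and 0.487% ± 0.098 against 0.0049% ± 0.0011 in the knockout line (SD, n = 10).

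**Figure D1:**
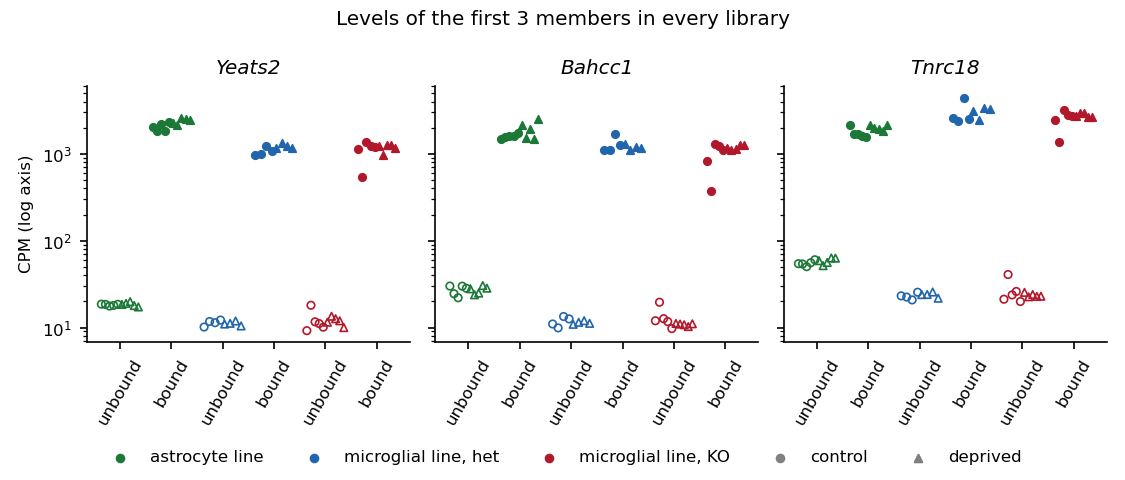
CPM (log axis) of Yeats2, Bahcc1 and Tnrc18 in all 56 libraries; filled symbols are bound and open symbols unbound libraries, circles control and triangles deprived pieces, and each symbol is 1 library. Bound and unbound libraries are apart in every line, and the lowest bound circle of the knockout line is the control piece of mouse 18.

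The rest of the list fell away gradually. The smallest of the 3 differences had a median of 1.84 over the members, 62 members exceeded 2 and 7 exceeded 4. By line the median difference was 1.90 for astrocytes and 2.38 for each microglial genotype; over all 10083 genes it was -0.06 for astrocytes, 0.22 for the heterozygous and 0.27 for the knockout line. The last members inside the threshold were Map7, Syne2, Kalrn, Clip2 and Flna, with Flna at 1.26, and the first genes outside were Myh9 (1.25), Cep85l, Akap8l, Zbtb4 and Mical3 (1.22). Bound libraries were all above the unbound ones for 149 members in the astrocyte line (14.5% of all 10083 genes), 148 in the heterozygous line (35.0%) and 149 in the knockout line (34.8%), and for 146 in all 3 (10.5%); the rule used this contrast. The exceptions were Gm10800 in the astrocyte line, Nid2 and Ptpn14 in the heterozygous line and Zfhx4 in the knockout line.

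**Figure D2:**
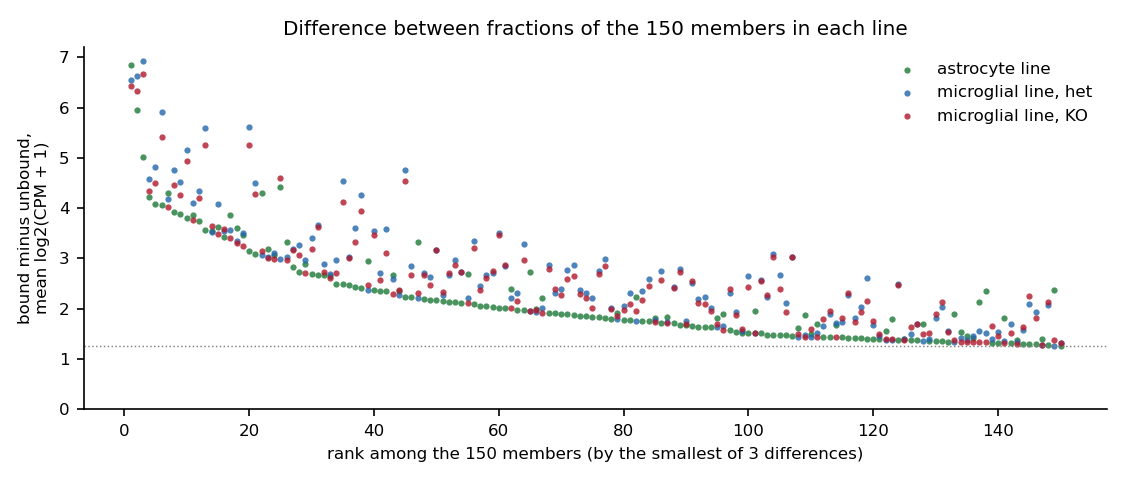
Bound minus unbound difference in mean log2(CPM + 1) of each of the 150 members in the 3 lines, by rank; each member has 3 points and the dotted line marks the last member's smallest difference, 1.26. The heterozygous and knockout points nearly coincide, and the astrocyte point is most often the lowest of the 3.

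Several of the first 20 members encode nuclear regulators. Tcf20 and Rai1, a pair of related transcriptional coregulators, had differences of 4.22, 4.57 and 4.34 (Tcf20) and of 4.07, 5.92 and 5.42 (Rai1); values here and below are given in the order astrocyte, heterozygous, knockout. Tcf20 reached a mean of 7001 ± 909.1 CPM in the bound libraries of the astrocyte line, against 373.3 ± 23.1 CPM unbound (SD, n = 10 each). Gli2 and Gli3, the transcription factors at the end of the Hedgehog pathway, had differences from 3.74 (Gli3, astrocyte line) to 4.76 (Gli2, heterozygous line). Kdm6b, a demethylase of lysine 27 of histone H3, gave 3.57, 5.60 and 5.26, and Bcor, the corepressor of BCL6, gave 3.15, 5.61 and 5.25. Gse1 gave 3.80, 5.17 and 4.93. Zfp638, a zinc finger protein that binds nucleic acids, was more even over the lines at 3.46, 3.51 and 3.25.

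The partners of these proteins did not share their position. Of the 4 genes with a YEATS domain only Yeats2 was a member, and the smallest differences of Yeats4, Mllt1 and Mllt3 lay between -0.08 and 0.51. Of 11 genes of the ATAC complex, Yeats2 was again the one member; the other 10, among them the acetyltransferases Kat2a and Kat14, lay between -0.47 and 0.26. Of 10 measured genes with a BAH domain, Bahcc1 and Tnrc18 were members and the other 8 ended at 0.92 (Ash1l). The 3 Tnrc6 genes, which share only a repeat-based name with Tnrc18, lay between 0.46 and 0.66. Among the NCoR and Sin3 corepressor genes, the scaffold gene Ncor1 (2.73, 3.26 and 3.07) was a member, while 8 genes that were not, Hdac3 and Gps2 included, lay between -0.27 and 0.62. These lists and the others named below were drawn up by function, with earlier results of these data known.

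Among 7 methyltransferases of lysine 4 of histone H3, 2 were members: Kmt2a (1.83, 1.73 and 1.71) and Kmt2c (1.68, 2.79 and 2.72). The other 5 ranged from 0.15 (Kmt2e) to 1.02 (Kmt2b), below the threshold. Arid1b, a DNA-binding subunit of SWI/SNF remodellers, was the one member of 12 genes of that list (2.40, 4.25 and 3.94), and the other 11 lay between -0.50 and 0.96. None of 16 measured Polycomb genes and none of 12 coactivator and bromodomain genes was a member; their smallest differences reached 0.81 (Phc2) and 0.87 (Ep400). Son, a splicing scaffold of nuclear speckles, was the one member among 10 splicing genes (2.13, 2.97 and 2.86); the others lay between -0.88 and 0.48. Shank2, a scaffold of excitatory synapses, was the one member of 10 postsynaptic genes (1.47, 2.66 and 2.39), with Shank3 just below the threshold at 1.20. All 20 cytosolic ribosomal protein genes had a negative smallest difference, from -1.12 to -0.30.

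The coding sequences of several of these nuclear genes hold long runs of one codon, which the rule did not use. Among the 149 members with a coding transcript in GENCODE vM21 (GRCm38), 16 (10.7%) had at least 6 identical codons in a row, against 320 of 10071 genes that met the level floor (3.18%). Long genes have more room for such runs: in the 1007 genes with the longest coding sequence the shares were 13.7% of 102 members and 8.84% of 905 others. The longest runs, of 9 codons, were in Blm (a RecQ helicase) and Kmt2c, followed by Ncor1 with 8 and Tcf20, Gse1, Kdm6b, Arid1b, Prrc2b and Magel2 with 7. The sequences below show the runs of 5 members in capitals, with 15 coding bases on either side. For contrast, the longest run of Tnrc18 is added, whose name refers to trinucleotide repeats. It had 3 codons in the single coding transcript used here, and other transcripts of the gene were not searched.
Blm (chr7:80512891-80512947, minus strand, exonic): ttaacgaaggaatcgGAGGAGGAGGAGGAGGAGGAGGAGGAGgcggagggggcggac
Kmt2c (chr5:25315762-25315818, minus strand, exonic): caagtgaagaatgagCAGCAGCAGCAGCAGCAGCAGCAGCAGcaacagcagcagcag
Ncor1 (chr11:62433598-62433651, minus strand, exonic): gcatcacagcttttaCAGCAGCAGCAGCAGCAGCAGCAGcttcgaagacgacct
Tcf20 (chr15:82856691-82856741, minus strand, exonic): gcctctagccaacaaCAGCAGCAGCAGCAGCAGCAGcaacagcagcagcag
Gse1 (chr8:120571009-120571059, plus strand, exonic): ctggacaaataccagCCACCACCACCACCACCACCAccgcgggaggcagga
Tnrc18 (chr5:142815133-142815171, minus strand, exonic): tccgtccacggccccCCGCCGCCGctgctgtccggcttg
CAG makes up 3 of the 5 long runs shown; that of Blm is of GAG and that of Gse1 of CCA.

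Cytoskeletal, junctional and matrix genes were also on the list; the families in this paragraph were grouped after their values were seen. All 4 measured plakins, the giant linkers between filaments and junctions, were members: Dsp (3.55, 3.52 and 3.65), Plec (3.32, 2.21 and 2.32), Dst and Macf1. The spectrin genes Sptb, Sptbn1 and Sptbn4 were members, and Sptan1 stayed at 1.01. Of the actin- and junction-associated genes, Shroom3, which drives apical constriction, gave 3.60, 3.34 and 3.31, Phldb2 gave 3.42, 3.55 and 3.58, and the angiomotins Amot and Amotl2 were both members while Amotl1 lay at 0.83. Kifc3, a minus-end-directed kinesin, gave 3.85, 4.11 and 3.76, and the intermediate filament gene Vim 2.35, 2.70 and 2.57. Of 13 measured basement membrane and matrix genes 8 were members, among them Hspg2 (perlecan), Fn1 (fibronectin), Fbn1 and Ncan, while Nid1 and the 4 measured laminin genes were not and ended at 0.88 (Lama2). Mmrn1, which encodes a large secreted platelet and endothelial protein, reached only 29.0 CPM in the bound libraries of the astrocyte line but 0.922 CPM in the unbound ones.

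Membrane receptors and synaptic genes came lower. Notch1, Notch2 and Notch3, the receptors of the Notch pathway, were members with smallest differences from 1.33 (Notch3) to 1.73 (Notch2), and Notch4 did not reach the level floor. All 3 Csmd genes were members, as were 2 of 5 measured LDL receptor relatives (Lrp1 and Lrp4). Of 8 active zone genes 4 were members: Erc2 (3.07, 3.10 and 2.99), Unc13a, Rims1 and Erc1. Of 4 genes of the AF4/FMR2 family of elongation factors 3 were members (Aff4, Aff1 and Aff3), with Aff2 at 0.04. At the nuclear pore, Pom121 (3.63, 4.09 and 3.48), Nup98 and Ranbp2 were members and the 7 other pore genes lay between -0.38 and 0.42. Ankrd26, a protein of the centriole's distal appendages, gave 4.09, 4.81 and 4.50, and Erich3 gave 4.29, 4.18 and 4.01.

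Membership did not require a low level in the unbound fraction. The members' unbound means had a median of 39.3 CPM in the astrocyte line against 34.3 CPM over all 10083 genes, and of 26.6 against 27.3 CPM in the heterozygous line. By the unbound mean over the 3 lines the highest 5 were Ncan, a brain chondroitin sulphate proteoglycan (1555, 846.3 and 872.0 CPM), Sptbn1 (1030, 718.0 and 684.9 CPM), Macf1 (664.5, 393.7 and 388.9 CPM), Ncor1 (489.7, 365.8 and 360.2 CPM) and Dst (491.1, 327.9 and 320.0 CPM). At the other end Emilin1, an elastic fibre protein, had unbound means of 0.452, 0.308 and 0.280 CPM in the 3 lines against 28.6, 10.7 and 11.4 CPM bound. No member marks astrocytes, microglia, neurons, oligodendrocytes or vessels in the marker lists used here. For astrocytes and microglia the rule largely set this outcome, since a member had to be bound in all 3 lines and Gfap was left out. Aldh1l1 had a difference of 1.82 in the astrocyte and 0.04 in the heterozygous line, and P2ry12 had -1.25 and 2.36. The smallest differences of the 32 markers that met the floor ended at 1.18 (Cspg4), and 7 of 10 microglial markers did not reach the floor in all tables.

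The difference varied more between the astrocyte line and the microglial lines than between the 2 microglial genotypes. The absolute difference between heterozygous and knockout values had a median of 0.09 over the members, and that between astrocyte and heterozygous values one of 0.48. The astrocyte line gave the lowest of the 3 values for 100 members, the heterozygous line for 19 and the knockout line for 31. By the median over all 10083 genes the astrocyte line was also lowest, at -0.06 against 0.22 (heterozygous) and 0.27 (knockout). Neither these counts nor the absolute differences between lines were computed over all genes. Across the 150 members, Spearman's rank correlation was 0.99 between the microglial genotypes and 0.73 between the astrocyte and heterozygous lines; genes in a table share its libraries, and the rule cut off the low end of each axis, so these are descriptions only. The 5 members with the widest range were Jmjd1c (2.23 in the astrocyte line, 4.75 and 4.54 in the microglial lines), Bcor, Prr12 (2.48, 4.54 and 4.11), Kdm6b and Tnrc18, all lowest in the astrocyte line. In the opposite direction, 9 members were more than 0.5 higher in the astrocyte than in the heterozygous line, among them Emilin1 (4.30 against 3.08) and Plec. The 5 most even members were Bcar3 (1.39, 1.39 and 1.37), Flna, Sall3, Tchp and Cep295. Gm10800, a predicted gene with a coding sequence of 660 bases, had the largest gap between microglial genotypes (2.99 and 4.61); its fractions overlapped in the astrocyte line, and whether its reads come from several similar loci was not tested. The same holds for the zinc finger genes Zfp97 and Zfp960, which lie on chromosome 17 and have coding sequences of the same length.

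Together the members took 8.57% ± 0.79 of the bound counts in the astrocyte line (SD, n = 10), 8.48% ± 0.74 in the heterozygous line (SD, n = 8) and 7.67% ± 1.11 in the knockout line (SD, n = 10). In the unbound libraries the shares were 1.68% ± 0.06, 1.13% ± 0.05 and 1.11% ± 0.05. The bound libraries of a line differed in this share together. In the astrocyte line the highest share, 10.2%, was in deprived piece 5, which also held the highest value of its line's bound libraries for 79 of the 150 members, although 12.97% of all 10083 genes were highest there. In the knockout line the control piece of mouse 18 had 5.10%, the other 9 bound libraries 6.50 to 8.87%, and 69 members had their lowest bound value in it, against 12.97% of all genes. In the unbound library of that piece 62 members had their highest value, against 11.5% of all genes. Its bound library also had the highest summed microglial (256.8 CPM) and neuronal (4035 CPM) markers of the knockout line's bound libraries, and the part of these in the members' values was not tested. The spread between bound libraries, as the SD of log2(CPM + 1), had a median over the members of 0.20, 0.22 and 0.28 (astrocyte, heterozygous, knockout), against 0.15, 0.15 and 0.16 over all 10083 genes.

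**Figure D3:**
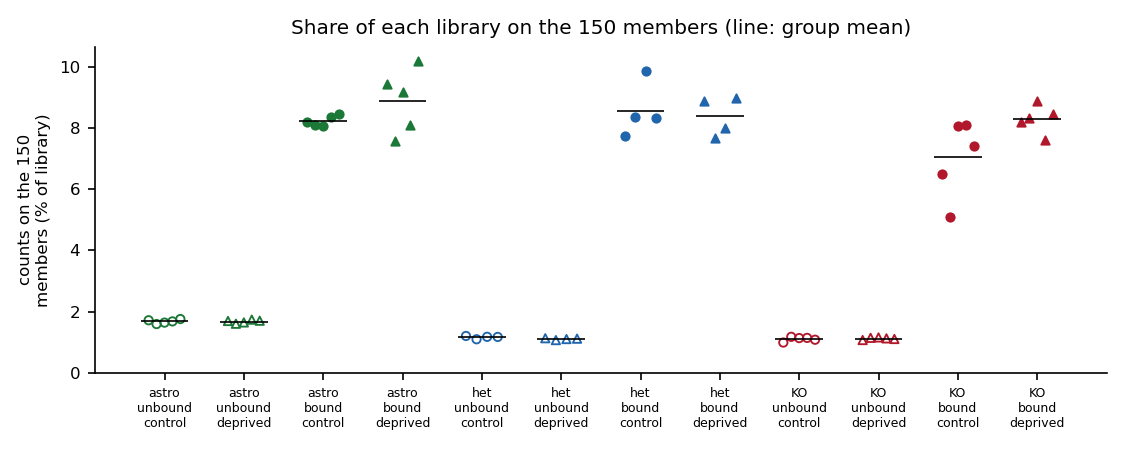
Percent of each library's counts that fell on the 150 members, by line, fraction and whisker condition; each symbol is 1 library and the black line is the group mean. Unbound libraries lie between 0.987 and 1.76% and bound libraries between 5.10 and 10.2%.

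The members were long genes. The median coding length was 5097 nt over 149 members matched to a coding transcript and 1503 nt over 10071 genes that met the floor. It was taken from a single transcript per gene, the longest in coding sequence, with preference for an annotated coding start. An annotated coding end was not required. At least 3000 coding nt were present in 124 members (83.2%) against 16.8% of all genes, and at least 9000 nt in 23 members (15.4%) against 0.993%. The decile of genes with the longest coding sequence, from 3792 nt upwards, held 102 members, and the decile below it 26. The members had a median of 22 exons against 10 over all genes. The lengths of the untranslated regions did not follow: the 3′ region had a median of 1201 nt in members and 1209 nt in all genes, and the 5′ region 193 against 184 nt.

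Most long genes were not members. Members were 10.1% of the longest decile, and 23.0% of genes with at least 9000 coding nt were members. The longest genes outside the list included Ttn (differences of 3.30, 0.94 and 1.10), Syne1 (2.02, 0.96 and 1.05), Adgrv1, Ahnak and Kmt2d. Across all 10071 genes Spearman's rank correlation between coding length and the difference was 0.20 in the astrocyte line, 0.55 in the heterozygous line and 0.55 in the knockout line; genes share libraries and are not independent. The first 20 members had a median coding length of 4983 nt and the other members one of 5193 nt; the first 3 had 4221 nt (Yeats2), 7929 nt (Bahcc1) and 5265 nt (Tnrc18).

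Base composition differed less. Coding GC content had a median of 54.7% in members and 52.3% in all genes; within the longest decile it was 54.6% in 102 members and 51.0% in 905 others. GC at codon position 3 was 61.0% against 59.4%, and ran from 26.7% (Zfp97) to 78.3% (Tchp) among members. The RefSeq promoter table for GRCm38.p6 (250 bases before to 50 after the start) matched 118 members by symbol; their promoters had a median of 64.7% GC and 25 CpG, against 62.0% and 22 over 8037 genes. Overlap with another annotated gene was present for 105 of 149 members (70.5%) and 56.9% of all genes. Members also had a longer gene span, with a median of 88734 bases against 30652 over all genes. Overlap was not compared between genes of like span. The sources used here do not say whether counting used strand.

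**Figure D4:**
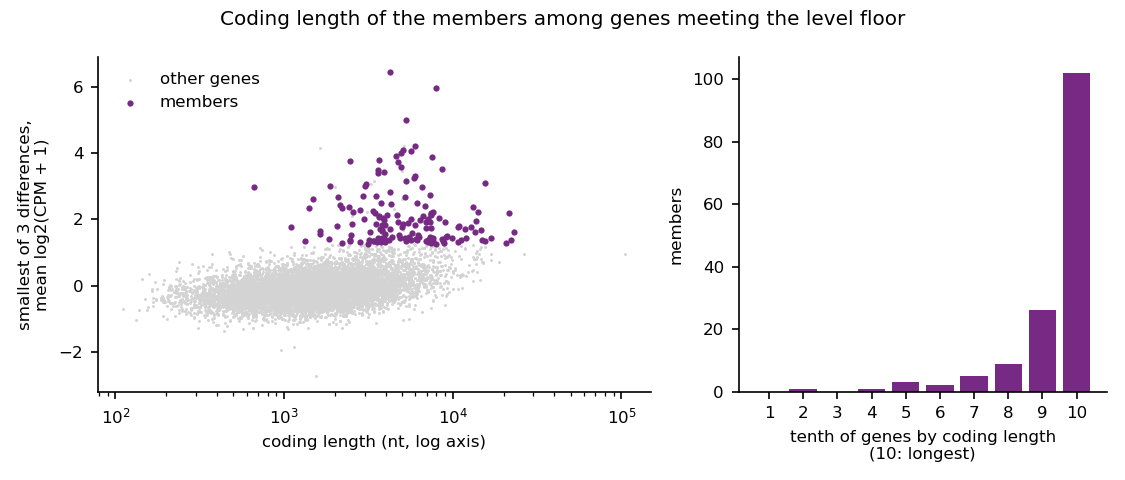
Left, coding length (nt, log axis) against the smallest of the 3 differences in mean log2(CPM + 1) for 10071 genes, members in purple; grey points above the members' lower edge are genes left out by name. Right, the number of members in each decile of genes by coding length: 102 fall in the longest decile.

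Whisker loss was a comparison that the rule did not use, since members were chosen on averages over both conditions. In the bound libraries of the heterozygous line, grouped by title, 32 of the 150 members passed edgeR's quasi-likelihood test at a Benjamini-Hochberg adjusted p of 0.05, where 10.3% of 18001 genes did: 11 were higher (5.52% of all genes) and 21 lower (4.76%) in deprived cortex. An unadjusted edgeR p below 0.05 was found for 66 members and 26.2% of all genes. The members' mean bound levels in this line had a median of 167 CPM, against 32.7 CPM over the 10083 genes that met the floor. Shares of calls were not compared between genes of like level. The called changes had absolute log2 changes from 0.27 to 1.01. The members' median change was -0.08 against 0.01 over all genes; it was 0.01 without piece 15R, -0.04 without 14L and -0.14 without 21R, so that its sign rested on 15R. None of the first 3 passed: Yeats2 changed by 0.09 ± 0.09 (log2, SE; adjusted p = 0.558 by edgeR), Bahcc1 by -0.21 ± 0.13 (adjusted p = 0.317) and Tnrc18 by -0.07 ± 0.18 (adjusted p = 0.844). The Tnrc18 value was 0.19 without 15R and 0.03 without 14L.

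The 5 higher members with the smallest p were Arhgef17, Aff1, Emilin1, Nhsl1 and Itgb5. Arhgef17, a guanine nucleotide exchange factor, had 93.6, 80.1, 68.1 and 76.3 CPM in the control pieces 14R, 15R, 21L and 21R, and 122, 125, 126 and 131 CPM in the deprived pieces 14L, 15L, 17L and 17R. The groups did not overlap, and the log2 change was 0.57 ± 0.08 (edgeR adjusted p = 0.00164). Emilin1 had 10.3, 5.62, 6.42 and 6.15 CPM in the same control pieces and 15.0, 16.4, 12.3 and 13.3 CPM in the deprived ones, again without overlap (0.90 ± 0.16, edgeR adjusted p = 0.00429). Aff1 rose by 0.48, Nhsl1, a regulator of actin at the cell edge, by 0.32 and the integrin subunit gene Itgb5 by 0.57.

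The 5 lower members with the smallest p were Clip2, Mn1, Prrc2b, Zfp469 and Triobp. Mn1, a transcriptional coactivator, had the largest change of all called members: 362, 562, 445 and 513 CPM in the control pieces 14R, 15R, 21L and 21R, and 197, 301, 286 and 225 CPM in the deprived pieces 14L, 15L, 17L and 17R (log2 change -1.01 ± 0.15, edgeR adjusted p = 0.00202). The highest deprived piece lay below the lowest control piece. Clip2, a protein of growing microtubule ends, had 106, 109, 98.9 and 123 CPM in control and 79.9, 79.8, 87.5 and 81.9 CPM in deprived pieces (-0.51 ± 0.07, edgeR adjusted p = 0.00174). Triobp, which bundles actin, changed by -0.605, Prrc2b by -0.53 and Zfp469 by -0.48.

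In the unbound libraries of the same pieces 15 members passed, 10 higher and 5 lower, where 3.75% of 18073 genes did (2.70% higher, 1.05% lower). Vim had 52.8, 43.9, 44.6 and 48.0 CPM in the control pieces 14R, 15R, 21L and 21R and 64.5, 70.1, 62.1 and 72.5 CPM in the deprived pieces 14L, 15L, 17L and 17R (0.52 ± 0.08, edgeR adjusted p = 0.00204). Nid2, a basement membrane protein, rose by 1.14 ± 0.24, the largest change of these, and Zfhx4 and Phldb2 rose by 0.72 each and Nhsl1 by 0.44. The lower members were Prickle1 (-0.52), of the planar polarity pathway, Mn1 (-0.32), the active zone genes Unc13a (-0.31) and Rims1 (-0.24), and Ylpm1 (-0.28). Both fractions had 8 called members in common, with the same sign in each: Phldb2, Vim, Aff1, Nhsl1 and Ptpn14 higher, and Ylpm1, Mn1 and Prickle1 lower. They were 25% of the bound and 53.3% of the unbound list. The fractions come from the same pieces, and the overlap of calls over all genes was not counted.

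These calls depended on the grouping. By side letter no member passed in either fraction (0 of 18001 and 0 of 18073 genes). Unadjusted edgeR p-values below 0.05 belonged to 12 and 8 members, and to 810 and 956 of those genes. By that grouping the smallest edgeR adjusted p of the 32 was 0.909. All 32 kept their sign, with a median absolute change of 0.23 in place of 0.44; the 2 groupings share 6 of 8 bound libraries. Without 17R and 21L, 14 members passed in bound and 5 in unbound libraries, 13 and 4 of them from the lists above. Over all genes 741 of 17989 and 294 of 18153 passed there. With mice 14 and 15 alone, where each mouse gave both sides, 5 and 1 members passed. Over all genes these were 119 of 18187 and 194 of 18583. By title each group holds 4 pieces of 3 mice: mice 14 and 15 gave 1 piece to each group, and both pieces of mouse 21 or of mouse 17 are in 1 group, so the pieces are not independent. With the replicate number as a block, 45 bound and 15 unbound members passed, against 2202 of 18001 and 748 of 18073 genes. Leaving out 1 piece gave 21 (without 15L) to 50 (without 14R) bound calls, where 938 of 18402 and 2089 of 18435 genes passed. The unbound calls ran from 5 without 15L (247 of 18290 genes) to 25 without 14R (1141 of 18379). They were 6 without 17R (396 of 18409), 8 without 15R (402 of 18346) and 9 without 14L (383 of 18296). Other cell markers moved with the title groups: the summed microglial markers were at 257.9 to 302.1 CPM in deprived and 123.9 to 197.3 CPM in control bound libraries, and the summed astrocyte markers at 827.0 to 908.4 and 689.3 to 779.3 CPM in the unbound libraries. The summed endothelial and mural markers were at 144.7 to 224.3 CPM in deprived and 137.6 to 156.9 CPM in control bound libraries, and at 178.9 to 235.7 and 140.5 to 192.1 CPM in the unbound libraries, with overlap in both fractions. Their part in the members' changes was not tested, and a change in the number of cells of a type cannot be told apart from a change in RNA per cell.

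**Figure D5:**
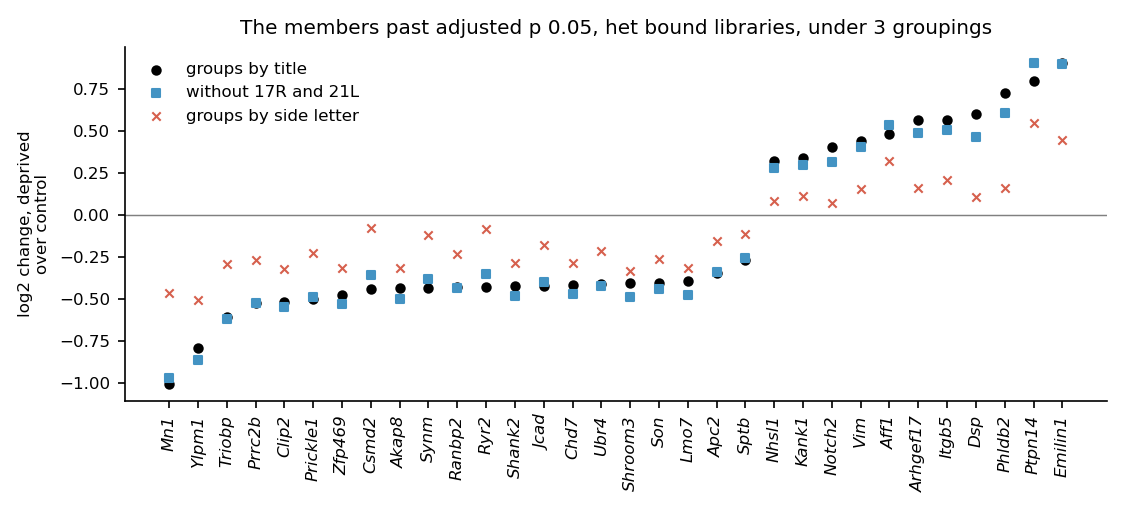
Log2 change (deprived over control) in bound libraries of the heterozygous line for the 32 members that passed by title; black circles, groups by title; blue squares, without pieces 17R and 21L; red crosses, groups by side letter. All 32 keep their sign under each grouping, and the crosses lie nearer to 0.

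In the astrocyte line no member passed in bound (0 of 150; 0% of 17685 genes) or unbound libraries (0 of 149 tested; 0% of 16846 genes) by edgeR. DESeq2 called 2 members in the bound and 0 in the unbound libraries, and 7 of 17683 and 0 of 16844 genes in all. In the bound libraries 49 members had an unadjusted edgeR p below 0.05, where 6.03% of all genes did, and 128 of 150 had a positive change; the median was 0.18 over the members and 0.00 over all genes. Without deprived library 5 the members with such a p were 25 (1011 of 18501 genes), and the median over all members was 0.10. Without deprived library 1 the members with such a p were 29 (1105 of 17783 genes). In the unbound libraries 10 members had such a p (6.19% of all genes) and 70 were positive. Without control library 4 such a p was found for 6 members (767 of 17054 genes). The 3 with the smallest p in bound libraries were Gse1, Ncoa4 (the receptor that delivers ferritin to lysosomes) and Nhsl1, at 0.39 ± 0.10, 0.34 ± 0.09 and 0.33 ± 0.09 (log2, SE; edgeR adjusted p from 0.674 to 0.678). Gse1 had 295, 261, 251, 224 and 262 CPM in control and 367, 299, 310, 299 and 385 CPM in deprived libraries, which did not overlap. The members' share of bound counts was 8.08 to 8.47% in control and 7.57 to 10.2% in deprived libraries. In unbound libraries the smallest p belonged to Csmd3 (-0.22), Aff1 (0.23) and Dst (-0.17), with edgeR adjusted p from 0.678 to 0.764.

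In the knockout line no member passed either, in bound (0.00546% of 18324 genes did) or unbound libraries (0.0380% of 18421 genes) by edgeR. DESeq2 called 1 and 2 members, and 11 of 18316 and 35 of 18412 genes in all. An unadjusted edgeR p below 0.05 was found for 21 members in bound (3.77% of all genes) and 6 in unbound libraries (4.74%). The bound count was 7, 10 and 39 without the control pieces of mice 12, 18 and 22 (582 of 18583, 569 of 18703 and 747 of 18770 genes). It was 13 without the deprived piece of mouse 19 (709 of 18631 genes). The unbound count was 11 without the control piece of mouse 7 (996 of 18521 genes). The bound median was 0.16 with 122 of 150 positive, and it was 0.10 without the control piece of mouse 18. Zfhx4, a homeodomain and zinc finger transcription factor, had the smallest p in both fractions. In bound libraries it had 85.9, 93.9, 117, 86.9 and 70.0 CPM in the control pieces of mice 7, 12, 18, 19 and 22 and 36.4, 46.3, 59.0, 66.0 and 54.2 CPM in their deprived pieces, lower in 5 of 5 mice (-0.73 ± 0.15, edgeR adjusted p = 0.443). In unbound libraries it changed by -0.86 ± 0.16 (adjusted p = 0.117), also lower in all 5 mice. Cep131 (0.26) and Ttc19 (0.43) came next in bound, and Erich3 (-0.41) and Ryr2 (0.22) in unbound libraries. With the mouse as a block, which the design allows here since each mouse gave both sides, 0 members passed in either fraction. Unadjusted edgeR p-values below 0.05 were then found for 36 members in bound (993 of 18324 genes) and 11 in unbound libraries (1293 of 18421 genes).

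Whether the bound minus unbound difference itself moved with whisker loss was tested as an interaction. The fit treated bound and unbound libraries as independent, although in the microglial lines each piece gave both. No member passed in the astrocyte, heterozygous or knockout line (0% of 18324, 19275 and 19681 genes by edgeR). DESeq2 called 0, 6 and 0 members, and 0 of 18322, 170 of 19249 and 0 of 19678 genes in all. Unadjusted edgeR p-values below 0.05 were found for 17, 25 and 10 members (2.98%, 9.88% and 1.70% of all genes). The smallest p belonged to Blm, Stil and Ncoa4 in the astrocyte line (0.45, 0.56 and 0.31; adjusted p = 0.999 by edgeR), to Arhgef17, Rims1 and Mn1 in the heterozygous line (0.42, 0.70 and -0.65; edgeR adjusted p from 0.153 to 0.21) and to Ttc19, Arid1b and Erc2 in the knockout line (0.50, 0.64 and 0.69). The members' median interaction was 0.18, -0.07 and 0.18 in the 3 lines. It was 0.11 without deprived library 5 of the astrocyte line and 0.07 without the control piece of mouse 18 of the knockout line. In the heterozygous line it was -0.01 without 15R, -0.12 without 21R, and -0.05 without 14L or without 15L. With 1 library pair left out, the members with an unadjusted edgeR p below 0.05 ranged from 8 to 32, 17 to 26 and 3 to 19 in the 3 lines. Over all genes they ranged from 467 to 731, 1533 to 2114 and 300 to 430. With the replicate number as a block (the mouse in the knockout line), 0 members passed. Such a p was then found for 29, 34 and 22 members, and for 641 of 18324, 2373 of 19275 and 501 of 19681 genes.

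Between the microglial genotypes, no member passed in bound (0.0561% of 19601 genes did, 0.0204% higher and 0.0357% lower in the knockout) or unbound libraries (0.0674% of 19278 genes, 0.0207% higher and 0.0467% lower) by edgeR. DESeq2 called 1 and 0 members, and 71 of 19595 and 64 of 19273 genes in all. An unadjusted edgeR p below 0.05 was found for 21 members in bound (7.47% of all genes) and 12 in unbound libraries (6.73%). The bound count was 9 without 15R (1187 of 20181 genes) and 12 without 17L (1300 of 20152). It was 13 without 17R (1222 of 20100) or without the deprived piece of mouse 22 (1467 of 19594). Unlike whisker loss, this comparison is not independent of the rule, which used the bound and unbound values of both genotypes. Ranking by the smallest of the 3 differences favours genes that are strongly bound in both, so the absence of calls is a description only. The 18 libraries of a fraction come from 4 heterozygous and 5 knockout mice, 2 pieces each, so p-values over pieces are too small. With the libraries of a mouse summed, 0 members passed by edgeR, and 1 and 3 genes in all did. Unadjusted edgeR p-values below 0.05 then belonged to 23 members in bound (946 of 20630 genes) and 8 in unbound libraries (969 of 20950 genes). Rnf213, a giant ubiquitin ligase, had the smallest p in both: its bound level lay between 62.0 and 181 CPM (median 112) in the heterozygous and between 59.0 and 96.9 CPM (median 79.2) in the knockout line, with overlap (-0.68 ± 0.17, edgeR adjusted p = 0.206), and the unbound change was -0.61 ± 0.16 (adjusted p = 0.251). Dsp followed at 0.48 in bound and 0.49 in unbound libraries, then Sall1 (-0.32, bound) and Zfhx4 (0.40, unbound). The differences for Yeats2, Bahcc1 and Tnrc18 were -0.02 ± 0.13, -0.22 ± 0.17 and -0.20 ± 0.14 in bound libraries (SE; edgeR adjusted p from 0.809 to 0.989). Each genotype had its own table and its own labelled RNA type, which cannot be told apart from genotype.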

How the data were processed

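The deposited files were 3 gene-level tables of raw read counts, 1 per line, in which the authors, per the submitters' processing notes, used HISAT2 2.2.0, featureCounts 2.0.0 and GRCm38 (mm10), with read quality and trimming handled by FastQC 0.11.9, Trim Galore 0.6.4 and cutadapt 2.9; the strand setting is not given in the sources used here. Per the labels' protocols, cDNA was amplified with the NuGEN Ovation V2 kit and libraries were made with Nextera XT. Columns were matched to samples by library name, and groups were taken from the titles.

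CPM used the column total. Tests used edgeR 4.0.16 (R 4.3.3, TMM, filterByExpr, quasi-likelihood F test) on all genes, with Benjamini-Hochberg adjustment and a threshold of 0.05. Whisker loss was tested within each fraction and line, and the interaction over both fractions of a line. Genotype was tested over both microglial lines within each fraction. The fit was tested on simulated counts. DESeq2 1.42.0, limma-voom (limma 3.58.1), other scalings, no filter, a replicate block and the removal of each library were run as alternatives. The members and gene lists were chosen with earlier results of these data known. Genes are named if they led the list, lay at its threshold, belonged to a list, had the widest or narrowest range over lines or the highest unbound level, or led a test (at most 5 each way; the first 3 where none passed). Runs of single residues in proteins were not analysed here; codon runs are shown instead. The piece pairs of the knockout line come from the same mouse (correlation of deviations 0.057 to 0.33), so the replicate block there is the mouse; in the heterozygous line only mice 14 and 15 gave pieces to both groups. Nothing in the labels says that the astrocyte pieces came from separate animals, so p-values there measure the spread between these libraries. Depth was 10081228 to 56689296 counts per library. Results for a few members are not reported here.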

Additional observations from a re-analysis of the deposited data

Results flagged for a closer look

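Among 88 groups of 4 or 5 libraries examined, 7 held a library far from the others; chance flags about 1 group in 20. In the knockout line the control piece of mouse 18 had the lowest bound Yeats2 value, 534.8 CPM against 1129 to 1368 CPM in the other 4 control libraries, and the highest unbound Yeats2 value, 18.03 CPM against 9.19 to 11.63 CPM. In the heterozygous bound control group, piece 15R had 4435 CPM of Tnrc18, where the other 3 had 2405 to 2558 CPM, and 39.32 CPM of Aff1, where the others had 35.87 to 35.96 CPM. In the astrocyte bound control group, library 1 had 2145 CPM of Tnrc18 against 1555 to 1701 CPM. In unbound libraries of the heterozygous line, the deprived piece 17L had 9.289 CPM of Phldb2 (others 7.032 to 7.414 CPM), and the control piece 14R had 172.5 CPM of Ylpm1 (others 188.3 to 191.3 CPM).

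Tns1, Ryr2 and Zfhx4 had values of opposite sign for whisker loss in the 2 microglial genotypes, in every mouse of the knockout line and without overlap of the title groups in the heterozygous line. None of them passed in the knockout line; in the heterozygous line Ryr2 passed in bound libraries and Tns1 and Zfhx4 in unbound libraries by title, and none by side letter. The difference between the genotypes was not tested. These genes were picked by searching the 150 members in both fractions for opposite signs without overlap. The search gave 5 cases, listed below. How many of all genes meet the same rule was not counted, so the cases are a selection and not evidence of a reversal between genotypes. The log2 change of Zfhx4 was 0.405 in heterozygous and -0.732 in knockout bound libraries, a gap of 1.14 on the log2 scale, and 0.716 and -0.862 in unbound libraries, a gap of 1.58. That of Tns1 was 0.266 and -0.19 in bound (gap 0.456) and 0.469 and -0.277 in unbound libraries (gap 0.746). That of Ryr2 was -0.424 and 0.181 in bound libraries (gap -0.605).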

How the results depend on the processing

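Of the 150 members, 148 to 150 were kept when 1 library was left out, 117 with a floor of 20 CPM and 128 with mitochondrially encoded genes left out of the totals, where the members' median smallest difference was 1.667 in place of 1.84 (1.80 to 1.863 with 1 library left out). Without a filter on low counts the members called for whisker loss in the astrocyte line were 14 (bound, 85 of 46838 genes) and 1 (unbound, 143 of 39364). In the heterozygous line they were 62 (2642 of 38316) and 29 (1459 of 37298). In the knockout line they were 1 (28 of 41441) and 1 (52 of 38617). For the heterozygous interaction 8 were called (118 of 41281 genes), and for genotype 7 (143 of 43624) and 2 (130 of 40945). DESeq2 called 2 members in astrocyte bound (7 of 17683 genes) and 26 in heterozygous unbound libraries (1176 of 18050). In the knockout line it called 1 in bound (11 of 18316) and 2 in unbound libraries (35 of 18412). For the heterozygous interaction it called 6 (170 of 19249), and for genotype 1 in bound libraries (71 of 19595). In the heterozygous line 0 and 0 members were called by side letter, 14 and 5 without 17R and 21L, and 5 and 1 with mice 14 and 15 alone. Counts over all genes for these fits, and for the block in this line, are given above. With 1 library left out, calls ranged from 21 to 50 in heterozygous bound and 5 to 25 in heterozygous unbound libraries. They ranged from 0 to 1 in knockout unbound libraries and in both genotype comparisons, and were 0 in the others. The knockout unbound call came without the control piece of mouse 22 (22 of 18914 genes). The genotype calls came in bound without 14R (21 of 20167 genes) or without 15L (16 of 20170), and in unbound without 14R (23 of 19570). In the heterozygous line 45 bound and 15 unbound calls were made with the replicate block. In the astrocyte and knockout lines the block gave 0. Control and deprived astrocyte pieces of the same number had correlations of -0.17 to 0.14 and were labelled with the same sex. Those correlations overlap the 0.057 to 0.33 of knockout pieces from the same mouse. Whether the astrocyte numbers pair pieces of an animal therefore cannot be told. Signs reversed for 2 of the changes given in the text, neither called: Tnrc18 in heterozygous bound libraries (-0.07; 0.0516 with limma-voom, and 0.0297 and 0.194 without 14L and 15R) and the genotype difference of Yeats2 in bound libraries (-0.02; 0.0452 with limma-voom, 0.0196 without 15R, and 0.00827 and 0.0732 without the deprived and the control piece of mouse 18; without 1 library its range was -0.0703 to 0.0732). Depth limits the lowest unbound values, where a member had as few as 2 counts.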
